A study of Mus musculus with 6 samples.

Results

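The epidermal differentiation complex is a cluster of gene families on mouse chromosome 3 that encode the proteins keratinocytes use to build the cornified layer of the skin. Its members were taken as every row whose symbol begins with Sprr, Lce or S100a followed by a digit, plus Lor, Ivl, Flg2, Hrnr, Rptn, Tchh and Tchhl1. This gave 57 of the 24453 gene rows, all on chromosome 3 between S100a1 (start 90511034) and S100a10 (end 93564643, GRCm38), a span of 3.05 Mb. Flg, which the selection also names, was not analysed here. By subfamily there were 15 Sprr genes, 21 Lce genes, 14 S100a genes, 5 fused-type genes (Flg2, Hrnr, Rptn, Tchh, Tchhl1), and Lor with Ivl.

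RNA was sequenced from sorted back-skin cells of mice at postnatal day 0, in 3 libraries labelled control and 3 libraries labelled Ring1a/b 2KO, with the genotype Ring1a-/- Ring1b-/-. RING1A and RING1B are the ubiquitin ligases of Polycomb repressive complex 1, which represses genes through chromatin, and the comparison asks what differs when both are lost. The allele, any Cre line, the genotype of the controls and any pooling of animals were not given in the labels. Nothing in the labels says that the 3 libraries of a group come from separate animals, so p-values measure the spread between these libraries, which may in part be technical. Xist levels, given below, differed so widely within each group that its libraries cannot all repeat the same RNA sample.

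Envelope proteins are made late, as keratinocytes leave the basal layer. Loricrin, involucrin, the small proline-rich proteins (Sprr) and the late cornified envelope proteins (Lce) are cross-linked by transglutaminases into the envelope that replaces the cell membrane. The fused-type proteins, such as filaggrin-2, hornerin, repetin and trichohyalin, join an S100 domain to long repeats and organise keratin or the envelope in epidermis, hair follicle or tongue. S100a genes encode small calcium-binding proteins, some of which are found in many tissues. Sprr1, Sprr2 and Lce3 genes are known for rising in wounded or inflamed skin, whereas Lce1 genes, Lor and Flg2 belong to ordinary epidermal maturation.

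Library totals ran from 24.8 to 30.8 megacounts, so that 1 count corresponded to between 0.0323 and 0.0392 CPM (counts scaled by library size and by edgeR's TMM factor). Ring1 was at 19.5, 22.4 and 3.37 CPM in control replicates 1, 2 and 3 and at 1.84, 7.34 and 14.1 CPM in 2KO replicates 1, 2 and 3. Control replicate 3 was therefore below 2KO replicates 2 and 3, against its label. Over all tested genes, however, the first principal component placed control replicate 3 (-77) with the other controls (-80.9 and -57.7) and 2KO replicate 3 (71.4) with the other 2KO libraries (67.8 and 76.4). Rnf2, which encodes RING1B, lay between 47.1 and 89.2 CPM in all libraries (edgeR adjusted p = 0.537 for Ring1 and 0.615 for Rnf2). Neither gene checks the labels, since a knockout allele can leave most of a transcript in place, and every direction given here therefore compares libraries as labelled. Xist was at 4550 CPM in control replicate 3, at 5360 and 4950 CPM in 2KO replicates 1 and 2, and at 2.48 to 10.4 CPM in the other 3 libraries. The labels call the cells hair follicle cells, while the protocol attached to them describes an interfollicular gate positive for Sca1. Ly6a, which encodes Sca1, was at 1.92 to 7.28 CPM, and the basal keratin Krt14 at 1470 to 4090 CPM. Krt1 and Krt10 are keratins of the layers above the basal one. Krt1 was at 1710, 5610 and 6680 CPM in control and at 567, 1690 and 2160 CPM in 2KO. Krt10 was at 1150, 3040 and 4070 CPM in control and at 232, 1050 and 807 CPM in 2KO, without overlap. Cells past the basal layer were therefore represented in every library. In bulk RNA, a change in the share of such cells and a change in RNA per cell cannot be told apart.

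Of the 57 members, 55 had at least 1 count and 41 passed edgeR's filter on low counts and were tested. In the libraries labelled 2KO, 4 members rose (Sprr1a, Sprr2b, Sprr2d and S100a6) and 0 fell (edgeR quasi-likelihood test, Benjamini-Hochberg adjusted p under 0.05 over all genes). At an unadjusted p under 0.05, 11 were higher and 2 lower. Over the same 41 members DESeq2 called 8 higher and limma-voom 2, with 0 lower in both. With its own filter DESeq2 gave an adjusted p to 51 members and called 14 higher, 6 of them outside the 41. The 4 that rose with edgeR are 9.76% of the tested members, where 6.61% of all 14972 tested genes rose and 2.42% fell. How the shares compare depended on the setting. DESeq2 on the same genes called 19.5% of members and 9.46% of all genes higher, and limma-voom 4.88% and 6.89%. Without 2KO replicate 1, 13 of 48 tested members rose (27.1%, beside 5.53% of all genes). Without 2KO replicate 2 only Sprr1a did (2.44%, beside 4.43%), and without control replicate 1 or control replicate 3 the number was 2 of 48 (4.17%, beside 4.91% and 3.98%). Fold changes lay above 0 in 34 of the 41, and in 48.6% of all tested genes. All 2KO libraries exceeded all control libraries for 7 of the 41 tested members (17.1%, beside 15.2% of all tested genes), and all lay below them for 2 (4.88%, beside 13.1%). The median log2 fold change was 3.41 over 7 tested Sprr genes, 1.09 over 17 Lce genes, 0.70 over 11 S100a genes, 0.29 over 4 fused-type genes and 0.13 over Lor and Ivl, beside -0.02 over all tested genes. A member with few control counts, such as Sprr2b with 3, passed the filter on low counts only through its 2KO counts. The shares called, the 34 fold changes above 0 and these medians therefore describe the tested members and support no direction. Of the 34, 17 were Lce genes, all highest in 2KO replicate 2. Without 2KO replicate 2 the median was -0.71 over the Lce genes, -0.14 over the fused-type genes and -0.91 over Lor and Ivl, and without control replicate 1 that of Lor and Ivl was -0.37.

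**Figure D1:**
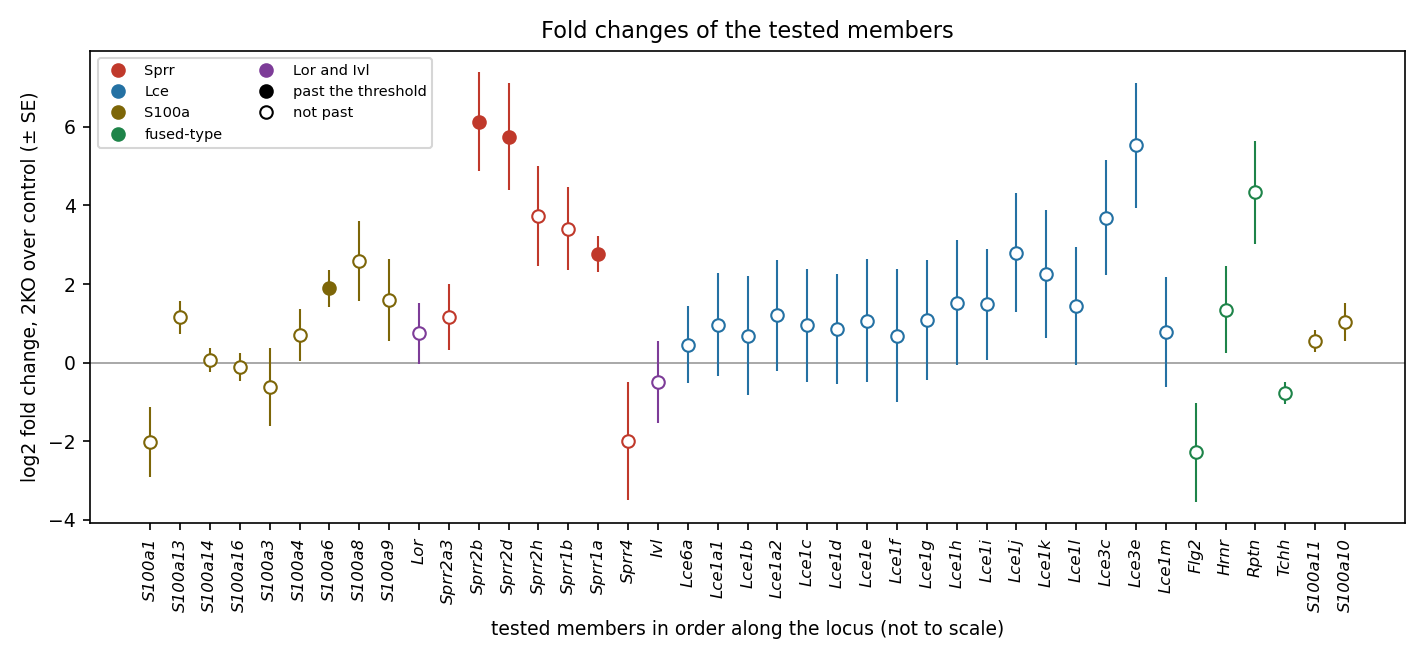
Log2 fold change of 2KO over control (vertical axis, with the standard error as bars) for the 41 tested members, placed in their order along the locus and coloured by subfamily, with filled symbols past the threshold. The Sprr2 and Sprr1 genes in the middle stand between 1.15 and 6.13, the Lce1 genes form a run between 0.69 and 2.80 with wide errors, and the 4 filled symbols are S100a6, Sprr2b, Sprr2d and Sprr1a.

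Among the Sprr genes 3 of 7 tested rose (42.9%, beside 6.61% of all tested genes) and 0 fell (beside 2.42%). Of these 3, Sprr2b and Sprr2d passed the filter on low counts only through their 2KO counts, so the share supports no direction. Sprr1a (chromosome 3, 92483952 to 92485895, minus strand) encodes a proline-rich envelope precursor. It was at 66.6, 174 and 146 CPM in control replicates 1, 2 and 3. In 2KO replicates 1, 2 and 3 it reached 812, 1380 and 426 CPM. Every 2KO library lay above every control library, and the log2 fold change was 2.76 (SE 0.46, edgeR adjusted p = 0.00622). Sprr1a kept its call in all 19 other settings and left-out libraries, with a log2 fold change of 2.28 to 3.19. It was also the most strongly expressed member of the family: per kilobase of exon, its mean level was 160 CPM per kb in control and 1080 in 2KO. Its neighbour Sprr1b (minus strand, 92436809 to 92438789), a close relative with the same role, measured 0.355, 5.94 and 9.32 CPM in control and at 14.8, 129 and 23.0 CPM in 2KO. The groups did not overlap here either, but both varied widely and the gene missed the threshold (edgeR adjusted p = 0.0787, log2 fold change 3.41 with SE 1.05).

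Sprr2 genes, a row of small neighbouring copies, were close to silent in the control libraries. Their summed level was 0.532, 2.32 and 1.93 CPM in control replicates 1, 2 and 3 and 3.88, 61.0 and 21.7 CPM in 2KO replicates 1, 2 and 3. Every 2KO library was above every control library in this sum, and 2KO replicate 1 was far below 2KO replicates 2 and 3. Sprr2d (92339140 to 92340873, plus strand) went from 0, 0.581 and 0.0654 CPM to 0.863, 25.7 and 9.46 CPM (log2 fold change 5.75 with SE 1.36, and an edgeR adjusted p of 0.0288). Sprr2b (92316620 to 92318085, plus strand) had 3 counts over the control libraries and reached 0.549, 5.47 and 1.84 CPM in 2KO. The ratio of its totals was 83.1 (95% exact counting interval 28.1 to 406, which covers counting error only), with an edgeR adjusted p of 0.0157. Both genes were higher in 3 of 3 libraries labelled 2KO than in any control library. Sprr2d no longer passed when control replicate 1 (edgeR adjusted p = 0.07), control replicate 3 (0.0909), 2KO replicate 2 (0.112) or 2KO replicate 3 (0.0645) was left out. Sprr2b no longer passed when control replicate 3 (0.0589) or 2KO replicate 2 (0.0758) was left out. With limma-voom the adjusted p was 0.0679 for Sprr2b and 0.268 for Sprr2d.

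Sprr2h (92385685 to 92387324) was at 0, 0.807 and 0.294 CPM in control and at 0.510, 10.1 and 4.32 CPM in 2KO, and missed the threshold (edgeR adjusted p = 0.111, log2 fold change 3.74 with SE 1.27). Sprr2e, Sprr2f, Sprr2g and Sprr2i, with 0 to 2 counts in 2KO replicate 1, did not pass edgeR's filter on low counts and were not tested. Sprr2e had 0 counts over the control libraries and 109 over those labelled 2KO, at least 38.3-fold higher against a floor of 3 counts over the control group. Sprr2f had 2 and 188 counts (ratio 104, 95% counting interval 28.5 to 867), Sprr2g 3 and 107, and Sprr2i 4 and 218. In each of these 4 the counts came mainly from 2KO replicates 2 and 3, and 2KO replicate 1 held at most 0.0784 CPM. Sprr2k, at 6 and 7 counts, and Sprr2j-ps, at 1 and 14, stayed near the lower limit of detection in both groups. Sprr2a3 was the member of the row with the most even levels, at 0.461, 0.549 and 1.41 CPM in control and 1.80, 3.04 and 0.549 CPM in 2KO (edgeR adjusted p = 0.492). Of its transcript windows 36.2% are shared with Sprr2a1, so its counts are uncertain. Sprr2a1 had 0 counts in all 6 libraries, and 92.5% of its 100-base transcript windows, the length of a read, also occur in another gene, mostly in Sprr2a2. For Sprr2b, Sprr2d, Sprr2h, Sprr2e and Sprr2i that share was at most 1.16%, so few stretches of read length are repeated exactly in another gene.

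Sprr4 (minus strand, 92500263 to 92500493) was at 0, 7.20 and 2.32 CPM in control and 0.0392, 1.77 and 0.549 CPM in 2KO, with a log2 fold change of -2.00 (SE 1.5, edgeR adjusted p = 0.509), and was the only tested Sprr gene with a fold change below 0. Sprr3, a gene of the oral and oesophageal lining, had 27 counts in 2KO replicate 2 and 0 in the other 5 libraries.

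**Figure D2:**
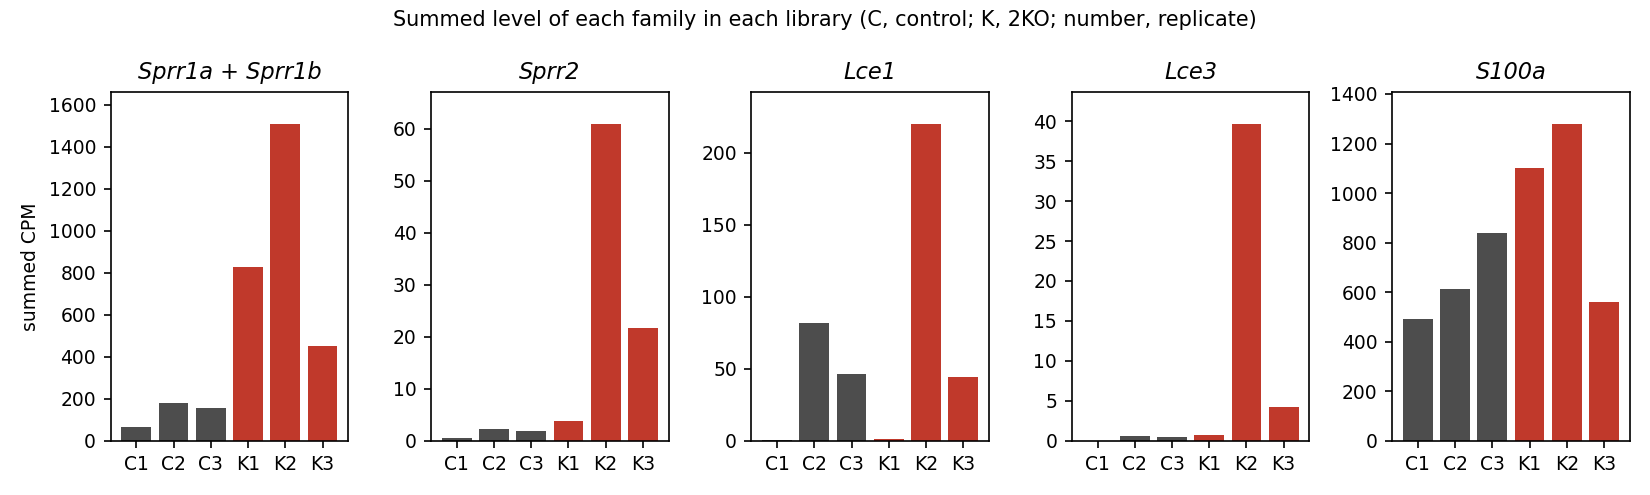
Summed CPM (vertical axes, each starting at 0 with its own range) of Sprr1a with Sprr1b, of the Sprr2, Lce1 and Lce3 genes, and of the S100a genes, in each of the 6 libraries, with control libraries in grey and 2KO libraries in red. The Sprr1 and Sprr2 bars of all 3 libraries labelled 2KO exceed every control bar, whereas the Lce1 bars of replicate 1 are close to 0 in both groups (0.639 and 0.941 CPM).

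The promoters of the Sprr genes that rose are shown because they share a TATA motif and an AP-1 motif, the latter with no match in any Lce promoter of the table. The pair is not particular to them: Lor, Ivl, Sprr1b and Sprr2k, which were not called higher, hold both motifs too. The stretches are the 210 bases before the RefSeq start of transcription (GRCm38.p6, 5′ to 3′ on the strand of the gene, position -1 being the base just before the start), with capitals marking TATAAA, the AP-1 motif TGANTCA and the antioxidant response motif TGACNNNGC on either strand. S100a6 is the other member that rose, and Rptn and Lce3e were added after their values were seen, as members with large fold changes short of the threshold. Their positions are chr3:92485882-92486091 (minus) for Sprr1a, chr3:92316495-92316704 (plus) for Sprr2b, chr3:92338930-92339139 (plus) for Sprr2d, chr3:93393489-93393698 (plus) for Rptn, chr3:92966851-92967060 (plus) for Lce3e and chr3:90612684-90612893 (plus) for S100a6.
Sprr1a: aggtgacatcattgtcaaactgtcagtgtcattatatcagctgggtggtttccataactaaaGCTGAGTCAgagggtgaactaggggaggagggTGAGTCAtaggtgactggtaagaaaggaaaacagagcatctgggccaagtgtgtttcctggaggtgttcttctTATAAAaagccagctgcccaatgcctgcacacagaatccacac
Sprr2b: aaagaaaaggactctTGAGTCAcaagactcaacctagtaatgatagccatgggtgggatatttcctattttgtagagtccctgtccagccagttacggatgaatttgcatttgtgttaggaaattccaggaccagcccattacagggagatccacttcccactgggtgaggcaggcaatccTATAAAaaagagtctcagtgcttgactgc
Sprr2d: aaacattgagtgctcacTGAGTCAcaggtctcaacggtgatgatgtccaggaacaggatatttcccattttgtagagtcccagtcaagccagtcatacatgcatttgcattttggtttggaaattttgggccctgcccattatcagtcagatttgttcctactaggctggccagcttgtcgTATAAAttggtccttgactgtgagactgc
Rptn: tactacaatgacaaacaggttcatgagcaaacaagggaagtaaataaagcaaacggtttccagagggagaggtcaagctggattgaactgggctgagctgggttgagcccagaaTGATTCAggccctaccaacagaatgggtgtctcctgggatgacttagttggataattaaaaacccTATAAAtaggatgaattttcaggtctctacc
Lce3e: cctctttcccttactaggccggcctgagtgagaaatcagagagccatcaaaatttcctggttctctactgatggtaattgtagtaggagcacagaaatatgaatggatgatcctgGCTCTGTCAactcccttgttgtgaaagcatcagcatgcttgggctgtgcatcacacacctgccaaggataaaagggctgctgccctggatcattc
S100a6: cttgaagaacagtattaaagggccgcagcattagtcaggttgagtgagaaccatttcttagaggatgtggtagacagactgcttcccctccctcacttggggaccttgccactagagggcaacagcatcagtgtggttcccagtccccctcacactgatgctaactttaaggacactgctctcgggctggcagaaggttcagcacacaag

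In Sprr2b and Sprr2d the TATA motif began 29 bases before the start, at position -29, and the AP-1 motif at -195 and -193. Sprr1a had AP-1 motifs at -146 and -116, the first of which overlaps an antioxidant response motif at -148, and its TATA motif at -43. Of 9 Sprr2 genes in the RefSeq table, 7 held both motifs, with TATAAA at -29 in each, and the others, Sprr2a1 and Sprr2a3, held neither. Across the subfamilies, TGANTCA occurred in 9 of 13 Sprr promoters, 0 of 20 Lce promoters, 2 of 15 S100a promoters and 3 of 5 fused-type promoters, and in both Lor and Ivl. The share was 7.81% of all 32851 promoters of the same 300-base length. The antioxidant response motif was in 3 of 6 Lce3 promoters and 1 of 13 Lce1 promoters, and in 12.4% of all promoters. CG dinucleotides were sparse, with a median of 2 per 300 bases in member promoters and 7 in all promoters. The exceptions were S100a11, S100a13 and S100a1, with 15, 14 and 11. TATAAA was in 10 of 13 Sprr, 4 of 20 Lce, 4 of 15 S100a and 2 of 5 fused-type promoters, and in both Lor and Ivl. The share was 13.6% of all promoters. A match is a run of letters, not a bound site. The table matched 51 of the 57 members, with 55 promoters.

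**Figure D3:**
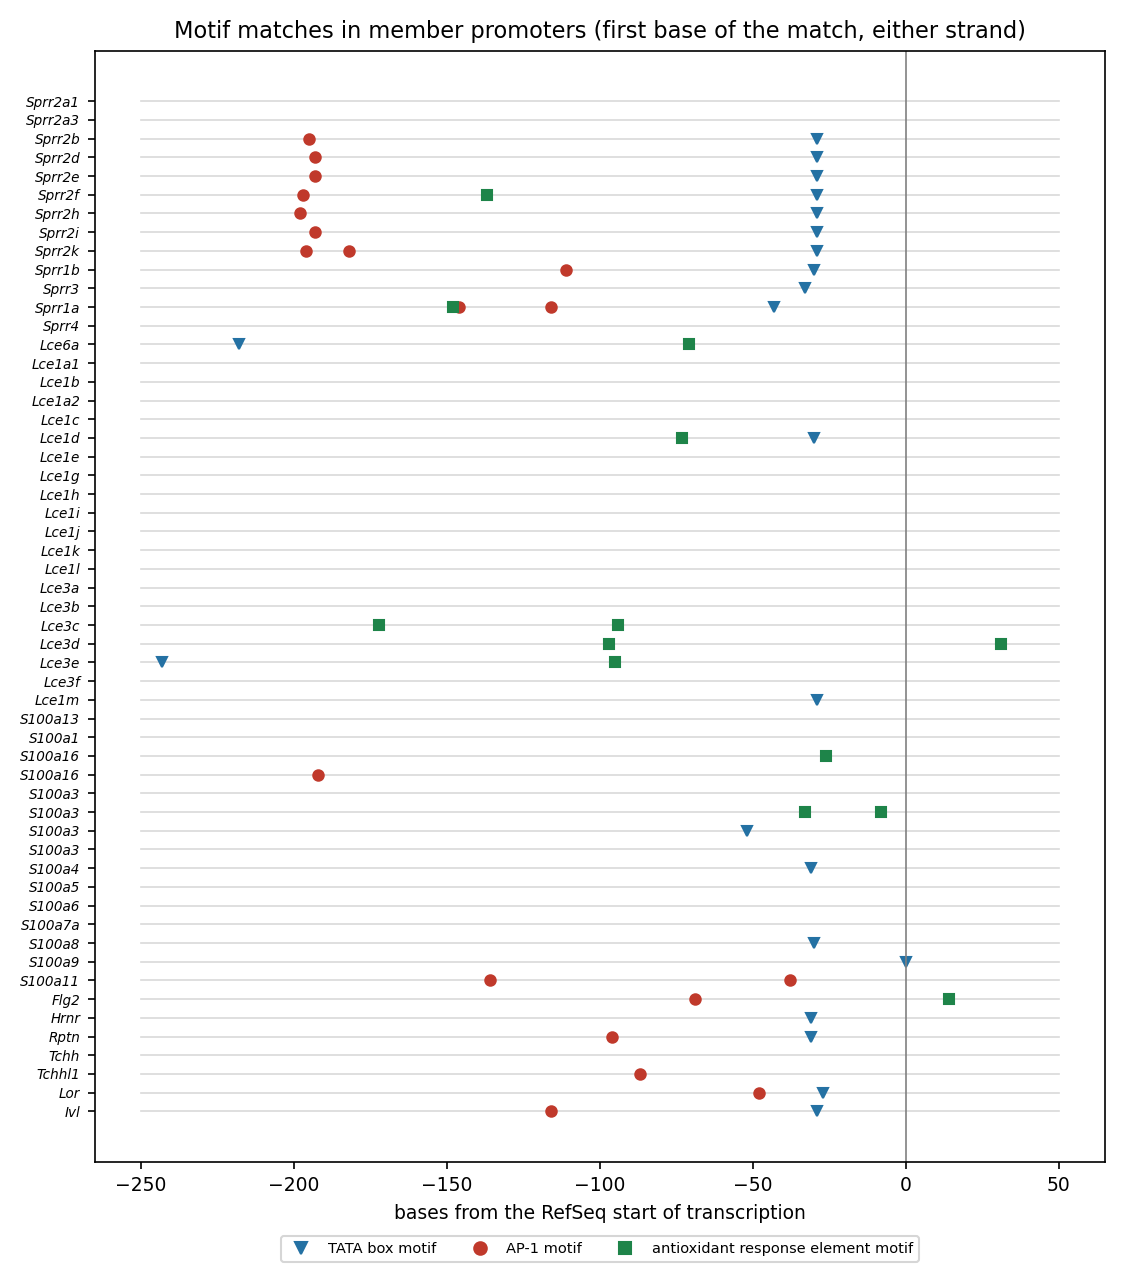
Position of each motif match (horizontal axis, bases from the RefSeq start of transcription; symbols give the motif) in the 55 promoters of 51 members, 1 row per promoter, grouped by subfamily. Of 9 Sprr2 rows, 7 carry an AP-1 symbol near -195 and a TATA symbol at -29, and those of Sprr2a1 and Sprr2a3 carry neither. The Lce rows carry no AP-1 symbol.

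Lce genes varied between libraries of a group by more than between the groups. The summed Lce1 level was 0.639, 81.9 and 46.6 CPM in control replicates 1, 2 and 3 and 0.941, 220 and 44.0 CPM in 2KO replicates 1, 2 and 3. Both replicate 1 libraries were almost empty of Lce1 RNA, and 2KO replicate 2 held the most. All 21 Lce genes were highest in 2KO replicate 2 and all were lowest among the 2KO libraries in replicate 1. Of 14 tested Lce1 genes 0 passed the threshold with edgeR, DESeq2 or limma-voom, and 0 had an unadjusted p under 0.05 (edgeR adjusted p between 0.334 and 0.873). All 14 had fold changes above 0, which for the most abundant rested on 2KO replicate 2. Without it the log2 fold change of Lce1b was -0.90, that of Lce1c -1.01 and that of Lce1d -0.51.

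The most abundant of them are given one by one. Lce1b (minus strand, 92655650 to 92656926) was at 0, 16.8 and 10.5 CPM in control and 0.0784, 34.4 and 9.57 CPM in 2KO (log2 fold change 0.69, SE 1.52). Lce1c (92679247 to 92680918, plus strand) was at 0.071, 16 and 5.69 CPM and at 0.235, 35.0 and 6.91 CPM (log2 fold change 0.95, SE 1.43). Lce1d was at 0.0355, 9.52 and 3.60 CPM and at 0.118, 17.6 and 5.96 CPM. In all 3 genes the groups overlapped throughout. Lce6a, an outlying single copy, stayed between 0.235 and 2.34 CPM in all libraries. Exact 100-base windows shared with another gene made up at most 4.9% of any Lce1 transcript.

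Lce3 genes, known from inflamed skin, summed to 0, 0.646 and 0.490 CPM in control replicates 1, 2 and 3 and to 0.745, 39.7 and 4.24 CPM in 2KO replicates 1, 2 and 3. Every 2KO library was above every control library, and 2KO replicate 2 made up most of the sum. Of 2 tested Lce3 genes 0 passed with edgeR and limma-voom while both had an unadjusted p under 0.05. DESeq2 called both, and 5 of the family with its own filter. Lce3e (92967061 to 92968281, plus strand) was at 0, 0.387 and 0.0327 CPM in control and at 0.392, 18.4 and 1.49 CPM in 2KO, and missed the threshold (edgeR adjusted p = 0.063, log2 fold change 5.53 with SE 1.59). Without 2KO replicate 2 its log2 fold change was 2.72 (adjusted p = 0.41). Lce3c followed at 0, 0.258 and 0.392 CPM against 0.196, 7.68 and 0.706 CPM (adjusted p = 0.175). Lce3b and Lce3f had 0 counts over the control libraries and 133 and 63 over those labelled 2KO, at least 45.7-fold and 21.3-fold higher. Lce3a and Lce3d each had 1 control count, against 159 and 107. Between 24.1% and 43.0% of the windows of Lce3c, Lce3d, Lce3e and Lce3f are shared with another gene, mostly among themselves, so the split of reads between these 4 is uncertain.

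The families were also set against each other within a library. Of 7 such ratios, chosen after the values were seen and given without a test, 1 was higher and 1 lower in 2KO without overlap, and 5 overlapped. Lce3 over Lce1 was 0, 0.00788 and 0.0105 in control replicates 1, 2 and 3 and 0.792, 0.180 and 0.0963 in 2KO replicates 1, 2 and 3. All 2KO libraries lay above all control libraries, although the value of 2KO replicate 1 rests on 19 Lce3 and 24 Lce1 counts. Sprr2 over Lce1 was 0.833, 0.0284 and 0.0414 in control and 4.13, 0.277 and 0.493 in 2KO. Here the groups overlapped through control replicate 1, which had 15 Sprr2 and 18 Lce1 counts. Of these 15 counts 13 were of Sprr2a3, whose counts are uncertain. Without Sprr2a1 and Sprr2a3 the Sprr2 sum was 0.071, 1.78 and 0.523 CPM in control and 2.08, 57.9 and 21.1 CPM in 2KO.

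**Figure D4:**
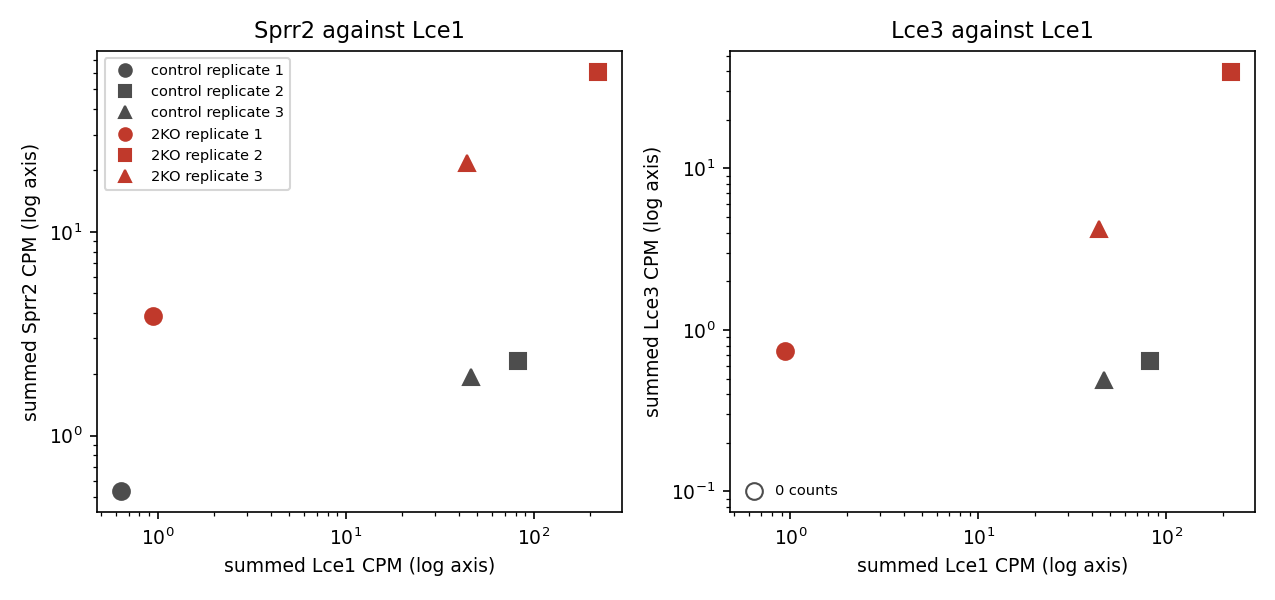
Summed Sprr2 CPM (left) and summed Lce3 CPM (right) against summed Lce1 CPM (horizontal axes), all on log axes, with 1 symbol per library; an open symbol at the bottom marks 0 counts. At a similar Lce1 level, 46.6 CPM in control replicate 3 and 44.0 CPM in 2KO replicate 3, the 2KO library holds 21.7 against 1.93 CPM of Sprr2 and 4.24 against 0.490 CPM of Lce3. This pair of single libraries was picked after the values were seen. The pair also differs in Ring1 (3.37 and 14.1 CPM) and Xist (4550 and 10.4 CPM). Over all libraries the ratio of Sprr2 to Lce1 overlapped between the groups, through control replicate 1, where 13 of 15 Sprr2 counts were of Sprr2a3.

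Neither Lor nor Ivl, the single-copy envelope genes, passed the threshold. Lor (minus strand, 92080271 to 92083142), which encodes loricrin, was at 2.16, 22.3 and 24.9 CPM in control and 9.69, 50.2 and 23.3 CPM in 2KO (edgeR adjusted p = 0.66, log2 fold change 0.75 with SE 0.78). Ivl (minus strand, 92570902 to 92573735), which encodes involucrin, an early scaffold of the envelope, was at 0.248, 2.94 and 4.97 CPM in control and 0.431, 4.31 and 1.06 CPM in 2KO (edgeR adjusted p = 0.851, log2 fold change -0.49 with SE 1.04). In both genes replicate 1 was the lowest library of its group. The errors are too wide to call the groups alike, and the sign of Ivl turned without control replicate 3 (0.28) or 2KO replicate 1 (0.01).

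Of 4 tested fused-type genes 0 passed with edgeR, 1 had an unadjusted p under 0.05 in each direction, DESeq2 called 1 higher and limma-voom 0. Rptn (93393699 to 93399442, plus strand), which encodes repetin, was at 0.248, 5.68 and 3.96 CPM in control and 1.76, 132 and 65.4 CPM in 2KO. Replicates 2 and 3 of 2KO stood far above all controls while 2KO replicate 1 lay within their range, and the threshold was missed (edgeR adjusted p = 0.0732, log2 fold change 4.33 with SE 1.3). It passed with both replicate 1 libraries left out (adjusted p = 0.00201) and without 2KO replicate 1 (0.0121). Hrnr (93319749 to 93333570, plus strand), which encodes hornerin, was at 3.23, 37.1 and 18.8 CPM in control and 1.37, 99.3 and 50.1 CPM in 2KO (log2 fold change 1.35, SE 1.11, adjusted p = 0.558). Flg2 (93197278 to 93221391, plus strand), which encodes filaggrin-2 and was added after its values were seen, had levels of 0.958, 21.4 and 5.23 CPM in control and 0, 2.70 and 2.94 CPM in 2KO (log2 fold change -2.28, SE 1.26, adjusted p = 0.344). The ratio of Flg2 to Hrnr, also chosen after the values were seen, was 0.297, 0.577 and 0.278 in control and 0, 0.0272 and 0.0587 in 2KO, without overlap.

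Tchh (93442330 to 93449077, plus strand) encodes trichohyalin, a protein of the inner root sheath, the layer around a growing hair. It was at 81.0, 41.3 and 42.6 CPM in control and 33.5, 29.1 and 34.5 CPM in 2KO. The groups did not overlap, but the gene missed the threshold (edgeR adjusted p = 0.145, log2 fold change -0.77 with SE 0.28). Of 10 tested markers of the inner root sheath and hair shaft, 8 fell (80%, beside 2.42% of all tested genes). The 14 listed markers summed to 84.6 to 115 CPM in control and 6.16 to 8.01 CPM in 2KO, and their part in the level of Tchh was not tested. Tchhl1, a relative of Tchh, had 10 and 25 counts in the groups and was not tested.

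S100a genes were, with Sprr1a, the most strongly expressed members. S100a11 (93520488 to 93526287, plus strand), a calcium-binding protein of the keratinocyte envelope, was at 211, 336 and 355 CPM in control and 402, 604 and 308 CPM in 2KO (edgeR adjusted p = 0.302, log2 fold change 0.54 with SE 0.28). The groups overlapped, and 34.0% of its transcript windows are shared with the gene Gm12854, so reads may be split. S100a14 lay at 147, 111 and 195 CPM in control and 202, 182 and 92.5 CPM in 2KO (adjusted p = 0.932), with S100a16 between 37.2 and 92.6 CPM in all libraries. None of these 3 genes passed, and their groups overlapped.

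S100a6 (90612882 to 90624181, plus strand), which encodes calcyclin, was the S100a gene that rose. It was at 25.8, 27.1 and 57.6 CPM in control and at 153, 203 and 54.7 CPM in 2KO (edgeR adjusted p = 0.0355, log2 fold change 1.89 with SE 0.47). Control replicate 3 and 2KO replicate 3 overlapped. It no longer passed when control replicate 1 (0.11), control replicate 2 (0.102), 2KO replicate 1 (0.0703) or 2KO replicate 2 (0.116) was left out. S100a10 (93555080 to 93564643, plus strand), the annexin A2 partner at the far end of the locus, measured 61.0, 68.9 and 128 CPM in control and 270, 197 and 60.9 CPM in 2KO (log2 fold change 1.03, SE 0.48, adjusted p = 0.25). It passed without 2KO replicate 3 (0.0393). In both genes control replicate 3 was the highest control and 2KO replicate 3 the lowest 2KO library, an order shared by Xist and, inverted, by Ring1. With Xist as a covariate the log2 fold change of S100a6 was 1.27 (adjusted p = 0.025) and that of S100a10 was 0.31 (adjusted p = 0.616).

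Other S100a genes were low. S100a8 (90668978 to 90670035, plus strand), a subunit of the antimicrobial complex calprotectin, was at 0.142, 0.0323 and 0.0654 CPM in control and 0.431, 0.501 and 0.549 CPM in 2KO. The groups did not overlap, on 7 and 40 counts in all (edgeR adjusted p = 0.173, log2 fold change 2.58 with SE 1.02). Its partner S100a9 was at 0.816, 0.161 and 0.523 CPM and at 2.12, 2.27 and 0.157 CPM. Neutrophils also carry both genes: of the 15 listed granulocyte and myeloid markers, the neutrophil genes Mpo, Ltf and Retnlg were at 0 in every control library and at 5 counts or fewer elsewhere. Cxcr2, a neutrophil receptor on the list, was at 0, 0 and 0.0327 CPM in control and 0.627, 0.234 and 0.196 CPM in 2KO, without overlap, like S100a8. Csf3r, Elane, Ngp and Camp, also on the list, overlapped, with means of 0.0217 to 0.501 CPM in control and 0.0654 to 0.170 CPM in 2KO. All 7 tested markers of the list had fold changes below 0, and 0 passed. The list summed to 33.0 to 37.9 CPM in control and 19.1 to 25.0 CPM in 2KO. Of this Cd68 alone held 17.9 to 22.5 and 10.2 to 13.7 CPM. The part of such cells in the S100a8 level was not tested. S100a1 was at 1.13 to 3.14 CPM in control and at 0.0785 to 0.768 CPM in 2KO, without overlap (log2 fold change -2.03, edgeR adjusted p = 0.225). S100a13, which lies beside it on the other strand, was at 2.58 to 3.12 CPM in control and at 4.04 to 8.20 CPM in 2KO, without overlap (log2 fold change 1.15, adjusted p = 0.148). S100a5 had 0 counts in all libraries, and S100a2 and S100a7a 1 count each.

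**Figure D5:**
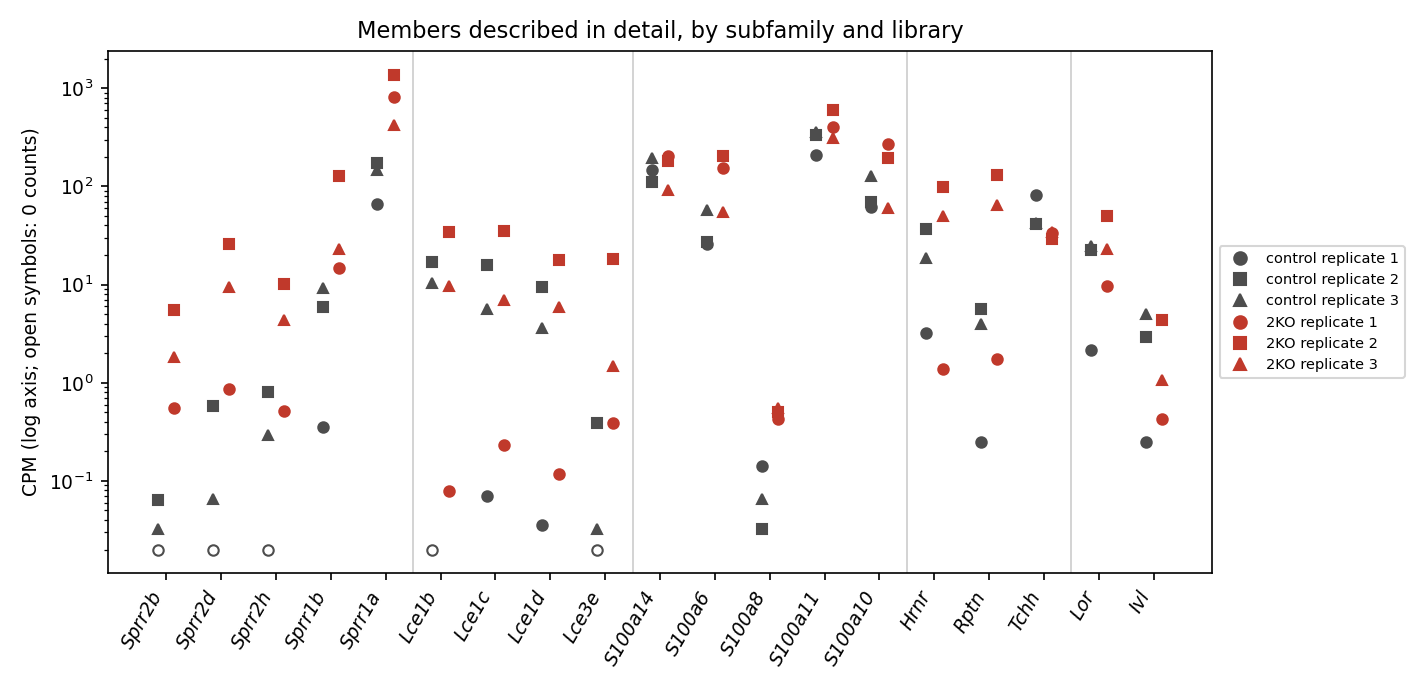
CPM (vertical log axis) of the members described in detail, by subfamily, with control libraries in grey and 2KO libraries in red, and the symbol shape giving the replicate number; open symbols mark 0 counts. Circles (replicate 1) are the lowest symbols for Lce1b, Lce1c, Lce1d, Hrnr and Lor in both groups, and for Sprr1a every red symbol (426 to 1380 CPM) is above every grey symbol (66.6 to 174 CPM).

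Of 9 listed genes that lie in the same interval but outside the families, 8 were tested, 1 fell and 0 rose with edgeR, DESeq2 and limma-voom (median log2 fold change 0.59, and 0 higher at an unadjusted p under 0.05). The 1 that fell with edgeR is 12.5% of the 8, where 2.42% of all tested genes fell and 6.61% rose. Kprp, a proline-rich keratinocyte gene, was at 2.09, 97.2 and 39.3 CPM in control and 1.29, 256 and 68.1 CPM in 2KO (edgeR adjusted p = 0.69), and Crct1 at 1.56, 10.2 and 3.79 CPM and 0.431, 25.1 and 4.08 CPM. Pglyrp4, which encodes a peptidoglycan recognition protein, fell from 4.15, 7.78 and 7.23 CPM to 0.902, 0.935 and 1.84 CPM (log2 fold change -2.38, SE 0.52, adjusted p = 0.0207). Leaving out control replicate 2 (0.0756), control replicate 3 (0.0787), 2KO replicate 1 (0.0511) or 2KO replicate 2 (0.073) ended that call. In the 1 Mb on either side of the locus 3 of 39 tested genes rose and 2 fell, with a median log2 fold change of -0.01. These are 7.69% and 5.13%, beside 6.61% and 2.42% of all tested genes.

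Of 31 tested enzymes and partners of the envelope encoded elsewhere, 2 fell (6.45%, beside 2.42% of all tested genes) and 0 rose with edgeR. Their median log2 fold change was 0.18. At an unadjusted p under 0.05 2 were higher and 4 lower. DESeq2 called 2 higher and 3 lower, and limma-voom 0 higher and 2 lower. Tgm5, a transglutaminase of the upper epidermis, fell from 49.3, 25.8 and 54.7 CPM to 0.0784, 1.94 and 1.45 CPM (edgeR adjusted p = 0.00319, log2 fold change -5.21 with SE 0.76). Tgm3 fell from 15.1, 42.1 and 42.9 CPM to 5.61, 8.14 and 7.77 CPM (log2 fold change -2.22, SE 0.40, adjusted p = 0.00939). Tgm1, the main transglutaminase of the epidermal envelope, named after its values were seen, was at 15.8, 30.7 and 23.5 CPM in control and 59.1, 43.6 and 34.0 CPM in 2KO, without overlap, and missed the threshold (log2 fold change 0.97, SE 0.30, adjusted p = 0.0836). Ppl, an envelope scaffold, was at 912, 1210 and 948 CPM in control and 808, 1170 and 1500 CPM in 2KO (adjusted p = 0.744). Krtdap was at 194, 480 and 624 CPM and at 368, 873 and 515 CPM (adjusted p = 0.629). These were the most abundant genes of the list.

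Among 31 tested regulators known to act on the locus, 1 rose and 5 fell (3.23% and 16.1%, beside 6.61% and 2.42% of all tested genes). All 2KO libraries lay below all control libraries for 11 of them (35.5%, beside 13.1%) and above for 5 (16.1%, beside 15.2%). Grhl3, a transcription factor of barrier formation, rose from 81.5, 101 and 110 CPM to 153, 327 and 226 CPM (edgeR adjusted p = 0.0177, log2 fold change 1.27 with SE 0.27). Its adjusted p was 0.0603 without control replicate 1, 0.0503 without control replicate 2 and 0.0532 without 2KO replicate 2. Prdm1, a repressor active in late keratinocytes, fell from 106, 79.7 and 54.9 CPM to 21.3, 13.2 and 27.2 CPM (adjusted p = 0.00613), and Ahr, the aryl hydrocarbon receptor, from 252, 289 and 209 CPM to 103, 117 and 129 CPM (adjusted p = 0.006). The AP-1 genes Jun, Fos and Fosl2 also fell. Jun went from 1730, 933 and 694 CPM to 538, 326 and 198 CPM, Fos from 756, 429 and 446 CPM to 282, 307 and 245 CPM, and Fosl2 from 1530, 1410 and 1220 CPM to 904, 798 and 838 CPM, with log2 fold changes of -1.66, -0.97 and -0.71 (adjusted p = 0.0336, 0.0324 and 0.0283). Each of these 3 failed the threshold when control replicate 1 (0.0958, 0.0751 and 0.0772), 2KO replicate 2 (0.11, 0.0743 and 0.106) or 2KO replicate 3 (0.0955, 0.119 and 0.0698) was left out. So did Fos when 2KO replicate 1 was left out (0.0749), and Fosl2 when control replicate 2 was (0.0927). Trp63, the most abundant of the list and a master regulator of epidermis, was at 1950, 1760 and 1690 CPM in control and 1240, 1180 and 1350 CPM in 2KO, without overlap, and did not pass (adjusted p = 0.0872).

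Of 14 tested suprabasal and granular markers Krt77 and Tgm3 fell (14.3%, beside 2.42% of all tested genes). Krt2 rose (7.14%, beside 6.61%). Fold changes lay above 0 in 6 of these markers and below 0 in 8. The 14 markers summed to 3610, 10400 and 12700 CPM in control and 1670, 4750 and 4340 CPM in 2KO. The sum was lowest in replicate 1 of each group, as were Lce1, Lor and Hrnr. Krt1 and Krt10 made up most of it, with means of 4670 and 2750 CPM in control and 1470 and 698 CPM in 2KO. The stress keratin Krt6a rose from 3.48, 41.1 and 37.6 CPM to 887, 1090 and 584 CPM (edgeR adjusted p = 0.0043, log2 fold change 4.96 with SE 0.76). Of 13 tested stress and wound genes 2 rose and 2 fell (15.4% each, beside 6.61% and 2.42% of all tested genes). Krt6a and Defb4 rose, the latter from 0 CPM in each control library to 0.549, 2.14 and 0.510 CPM. Stfa3 fell from 184, 511 and 748 CPM to 34.2, 88.2 and 29.3 CPM (log2 fold change -3.25, edgeR adjusted p = 0.00726). Stfa1 also fell (log2 fold change -1.69, edgeR adjusted p = 0.0412). Krt6b and Krt16 had no overlap between groups but did not pass (adjusted p = 0.069 and 0.159), and Krt6a and Krt6b may share reads. Of 9 tested dermal fibroblast markers 3 rose and 0 fell (33.3% higher, beside 6.61% of all tested genes). The part of these cell states in the levels of Sprr, Lce and S100a genes was not tested.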

How the data were processed

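The 6 libraries (3 control, 3 Ring1a/b 2KO) were made from 10 ng RNA with an amplifying kit and sequenced as 100-nt single reads, per the labels' protocols. The authors deposited a table of raw counts per gene for each library; TopHat2 2.0.13, HTSeq 0.6.1, Cufflinks 2.2.1, DESeq2 1.6.3 and mm10 are named in the submitters' processing notes. Strand handling and treatment of multiply mapped reads were not given there. Totals were 24.8 to 30.8 megacounts, so genes with few counts are imprecise.

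Gene symbols were matched to GENCODE vM21 on GRCm38 (97.1% matched). Counts were filtered with filterByExpr, scaled by TMM and tested with the quasi-likelihood test of edgeR 4.0.16 in R 4.3.3, adjusted over 14972 genes. DESeq2 1.42.0, limma 3.58.1 (voom), other factors and filters, a replicate block, left-out libraries and, added after seeing the data, Xist as a covariate and DESeq2 on the genes edgeR tested were alternatives. The test was checked on simulated counts.

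Members and lists were chosen with earlier results of these data known. Values per library are given for members past the threshold, and for the 3 of highest mean CPM and the largest uncalled fold change in each subfamily. In each list of envelope partners, other genes of the locus and regulators they are given for genes past the threshold and the 2 of highest mean CPM. The lists of cell type and stress markers did not follow this rule. Other genes given by library were picked after their values were seen. Intervals cover counting error only.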

Additional observations from a re-analysis of the deposited data

How the results depend on the processing

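Sprr1a passed in all 19 alternatives, and 0 members were lower in any of them. The number of members that rose was 4 in the main fit (9.76%, beside 6.61% of all tested genes). It became 8 with DESeq2 on the genes edgeR tested, added after seeing the data (19.5%, beside 9.46%). DESeq2 with its own filter, which changes the tool and the genes tested together, gave 14 (27.5%, beside 9.1%). The number was 13 without the low-count filter (23.6%, beside 5.8%) and 2 with a filter of 1 CPM in 3 libraries (6.06%, beside 6.98%). It was 2 with limma-voom (4.88%, beside 6.89%) and 11 without both replicate 1 libraries (22.9%, beside 4.83%). With 1 library left out it was 1 to 13 (2.44% to 27.1%, beside 3.98% to 5.53%). These shares, too, support no direction. Replicate numbers were not treated as pairs in the main fit. The correlation of deviations was 0.29, 0.089 and -0.076 for numbers 1, 2 and 3. On the second principal component both replicate 1 libraries (44.8 in control and 68.5 in 2KO) lay apart from the others (-23.8 to -32.9). What the replicate 1 libraries have in common was not tested. With a replicate block 8 members rose (19.5%, beside 7.63% of all tested genes), with 3 envelope partners and 4 regulators higher. The Sprr median was 1.96 with the 1 CPM filter. The S100a median was 0.25 to 1.14 with 1 library left out and 0.30 with Xist as a covariate. The Lce median was -0.71 to 2.22, the fused-type median -0.14 to 0.74 and the Lor and Ivl median -0.91 to 0.93 over all alternatives. Envelope partners higher were 2 with either DESeq2 fit, and 0 were lower without both replicate 3 libraries. Other genes of the locus that fell were 0 to 1 with 1 library left out and 0 without both replicate 3 libraries. Regulators higher were 5 with either DESeq2 fit, 4 without the filter, 4 with limma-voom, 2 without both replicate 1 libraries, 0 without both replicate 3 libraries, and 0 to 1 with 1 library left out. Regulators lower were 8 with either DESeq2 fit, 2 without both replicate 3 libraries, 2 with Xist as a covariate, and 2 to 5 with 1 library left out.

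Signs turned for S100a14 (-0.10 without control replicate 2, -0.12 without 2KO replicate 1, -0.03 without 2KO replicate 2, -0.13 without both replicate 1 libraries, -0.28 with Xist as a covariate) and for Ivl (0.28 without control replicate 3, 0.01 without 2KO replicate 1, 0.57 without both replicate 3 libraries). They also turned for Lce1b, Lce1c and Lce1d without 2KO replicate 2 (-0.90, -1.01 and -0.51), for Rnf2 without both replicate 3 libraries (-0.05) and for Ring1 with Xist as a covariate (0.03). With 1 library left out the log2 fold changes spanned -0.12 to 0.37 for S100a14, -1.85 to 0.28 for Ivl, -0.90 to 1.48 for Lce1b, -1.01 to 2.28 for Lce1c and -0.51 to 2.11 for Lce1d. The cause was not tested.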
